A study of Mus musculus with 62 samples.

Results

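The 35 genes described here are imprinted genes, which mice and other mammals express mainly or only from the chromosome inherited from 1 parent. They were chosen by name from a fixed list, out of 35914 nuclear genes in the counted tables, and 34 names matched directly; Nespas was found under the RefSeq symbol Gnasas1. By textbook assignment 13 of them are expressed from the maternal allele and 22 from the paternal allele, in at least 1 tissue. Only the amount of transcript was measured: the files do not separate the parental alleles and hold no DNA methylation values.

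Imprints are DNA methylation marks laid down differently in egg and sperm precursors. In the germ line they are erased in primordial germ cells (PGCs, the embryonic founders of eggs and sperm). In males they are laid down again in prospermatogonia, the fetal germ cells that stop dividing before birth and become spermatogonia, the dividing stem and progenitor cells of the testis. Many imprinted genes act on fetal growth: Igf2 is a growth factor, Igf2r is a receptor that clears it, and Grb10, Phlda2 and Cdkn1c restrain growth or the cell cycle.

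The study measured 62 libraries in 31 groups of 2, each a 3′-end library built on 1 ng of RNA. The culture groups came from embryonic stem cells carrying the transgenes Prdm1-mVenus, Dppa3-ECFP and mvh(Ddx4)-RFP (all Tg/0, strain B6C3(Cg) × C57BL/6): PGC-like cells at d4 and d4c5 (n = 4), prospermatogonia-like cells at 4 time points from m0 to m7 (m0, m3, m5, m7; n = 8) and, at m10, m12 and m14, spermatogonia-like cells (n = 6). The m groups grew in reconstituted testes, in which the PGC-like cells join somatic cells of E12.5 ICR fetal testes whose own germ cells had been removed magnetically. GSC-like cell lines are described as propagated from cells of m14 reconstituted testes. They form the sets 16_W (lines 1, 2 and 4, n = 6 libraries), S (lines 1 to 4, n = 8) and W (lines 1 to 4, n = 8). They are compared with GSC1, a germline stem cell line (n = 2). These lines carry Acr-EGFP and Actin-EGFP (both Tg/0, strain 129/SvJcl x C57BL/6) by label, and each is 1 culture. The in vivo germ cells, sorted from ICR x B6C3(Cg)B6F1(5N) mice with Ddx4-RFP Tg/0, are spermatogonia of postnatal ages P0, P1, P3, P5, P7 (n = 10) and prospermatogonia of each embryonic day from E14.5 to E18.5 (n = 10). The sources used here do not explain the letters m, c, W and S or the prefix 16. Labelled strain and transgenes differ between the culture groups, the lines and the in vivo cells. In comparisons between these, strain, transgenes and culture cannot be told apart.

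The libraries held 1404261 to 4485280 reads of nuclear genes. Levels below are CPM (counts scaled to the same library size) on library sizes scaled by TMM (edgeR's trimmed mean method), and they are not compared between genes, because 3′-end counting recovers genes unequally. Fold changes are log2 values with a standard error (SE) from edgeR's quasi-likelihood fit, and calls required a Benjamini-Hochberg adjusted p (over all genes) under 0.05 with a change of at least 1 on the log2 scale. A stage is the average of its groups on the log2 scale, where groups near 0 pull hardest. The labels do not say that the 2 libraries of a group came from separate animals or cultures, so these p-values measure a spread that may be technical. In bulk samples like these, fewer cells of a type and less RNA per cell cannot be told apart. With time points instead of libraries as the units, the comparisons between stages held 1 to 9 called imprinted genes, and those that kept their call are named below. Shares over all genes were computed for the main fits only, not for other units, omissions or choices of time points.

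Transgene sequence rows went against the labels of some lines. The RBG pA row held 35.55 to 379.6 RPM (reads relative to the library's nuclear gene reads) in the 16_W libraries and 357.8 to 394.9 RPM in GSC1, but at most 0.345 RPM in S and 0.284 RPM in W libraries. The BGH pA row showed the opposite split, with 4.0 to 15.49 RPM in S, 3.633 to 12.87 RPM in W, at most 0.329 RPM in 16_W and 0 in GSC1. The S and W lines therefore differ from 16_W and GSC1 in transgene sequence although all share a labelled genotype. In comparisons across that split the set and this difference cannot be told apart. BGH pA held 58.38 to 77.98 RPM in PGC-like, 16.2 to 99.92 in prospermatogonia-like and 12.41 to 67.98 in spermatogonia-like cells. RBG pA was at 0 in all of these. The SV40 pA row held 222.5 to 2935, 115.5 to 3705 and 11.41 to 131.5 RPM in the same stages, and at most 1.902 RPM in any line.

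Markers of other testis cells differed between groups. The summed level of 14 Sertoli cell genes ran from 433 to 963 CPM in prospermatogonia-like cells, against 109 to 441 CPM in prospermatogonia. It ran from 402 to 783 CPM in spermatogonia-like cells, against 47.2 to 157 CPM in spermatogonia, and from 21.5 to 147 CPM in PGC-like cells and all lines. Macrophage markers (11 genes) reached 121 to 1283 CPM in spermatogonia-like cells, against 16.7 to 77.7 CPM in spermatogonia and 3.54 to 125 CPM in prospermatogonia-like cells. Germ cell markers (13 genes, among them Ddx4 and Dazl) summed to 641 to 803 CPM in PGC-like cells, 964 and 1223 CPM at m0, 1779 and 2617 CPM at m3, and 4642 to 5478 CPM at m5 and m7, against 4381 to 7033 CPM in prospermatogonia. The part of these cells in the results was not tested. Mitochondrial reads were 3.38 to 9.77% of a library in replicates 1 and 8.0 to 17.2% in replicates 2 of the culture groups, lower in replicate 1 in 8 of 9 groups, and 9.99 to 17.48% in vivo.

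Promoters of 4 loci that carry much of what follows are shown, from RefSeq on GRCm38.p6. Capitals mark the letters TGCCGC or their reverse complement, the hexamer that the imprint-keeping zinc-finger protein ZFP57 is known to bind when methylated. Peg3 and Usp29 are transcribed away from each other and the whole stretch of 163 bases between their annotated starts is shown on the plus strand (chr7:6730420-6730582). The others are the 150 bases before an annotated start, on the plus strand: Plagl1 at chr10:13090682-13090831, Mest at chr6:30737900-30738049 and Meg3 at chr12:109540846-109540995.
Peg3 to Usp29: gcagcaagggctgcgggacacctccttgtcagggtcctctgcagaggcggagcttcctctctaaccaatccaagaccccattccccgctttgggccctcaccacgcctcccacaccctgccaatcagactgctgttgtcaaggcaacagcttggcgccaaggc
Plagl1: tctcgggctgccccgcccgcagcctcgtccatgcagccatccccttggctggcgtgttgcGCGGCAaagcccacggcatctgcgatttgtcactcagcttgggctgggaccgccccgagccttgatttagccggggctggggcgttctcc
Mest: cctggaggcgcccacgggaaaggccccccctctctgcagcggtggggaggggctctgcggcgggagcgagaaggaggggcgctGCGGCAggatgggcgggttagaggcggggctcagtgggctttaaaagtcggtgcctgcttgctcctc
Meg3: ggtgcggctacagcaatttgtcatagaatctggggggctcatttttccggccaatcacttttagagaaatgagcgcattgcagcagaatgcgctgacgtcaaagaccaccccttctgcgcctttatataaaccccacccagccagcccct
The hexamer occurs 1 time in the Plagl1 and 1 time in the Mest stretch, while the Peg3 to Usp29 and Meg3 stretches hold none. In windows of 250 bases before annotated starts, read on both strands, it was in 7 of 43 windows of 28 matched imprinted genes (16.3%) and in 2850 of 32851 windows of all genes (8.7%). The genes with a match were Mcts2, Meg3 (outside the stretch shown), Mest, Nap1l5, Plagl1 and Zim1. The Mest starts at 30738050 and 30738053 lie so close that the same matches count in both windows, while the Mest start at 30733506 had none. No share by gene was computed for all genes. Grb10, Zrsr1, Phlda2 and Kcnq1ot1, not shown, had no match. CpG dinucleotides had a median of 10 in the imprinted windows and 6 in all windows. These are matches of letters, and no binding was measured.

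Of the 35 imprinted genes, 29 passed the filter of at least 5 RPM in at least 2 libraries and 22 passed it within the lines. Snrpn, which encodes a splicing protein, had 1 read in all 62 libraries together. Such a count does not by itself show that the transcript was absent, because 3′-end counting recovers genes unequally. Peg10, Gnasas1, Zim1, Mcts2 and Airn stayed low as well: Peg10 was at 0 to 1.42 CPM in every library and Airn at 0 to 1.47 CPM apart from 5.37 CPM in 1 d4 library. Several members overlap another gene or its antisense transcript. The sources used here do not say whether strand was used in counting or how reads shared by overlapping genes were handled. The counts of Gnas and Gnasas1, Airn and Igf2r, and Mest and Copg2 are uncertain in these respects. So are those of Kcnq1ot1 (inside Kcnq1), Mcts2 (inside H13), Nap1l5 (inside Herc3) and Zrsr1 (inside Commd1).

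Most of the tested imprinted genes varied over time. Among the 9 culture time points 27 of 29 differed by at least 1 log2 unit between the highest and lowest group, where 73.4% of all genes did. Over the 10 in vivo time points it was 28 of 29, where 84.9% of all genes did, and the exception was Igf2r. Kcnq1ot1 and Usp29 were the culture exceptions, with adjusted p of 0.203 and 0.177 in edgeR's quasi-likelihood F test. Between the 11 GSC-like lines 12 of 29 differed, where 14.1% of all genes did.

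**Figure D1:**
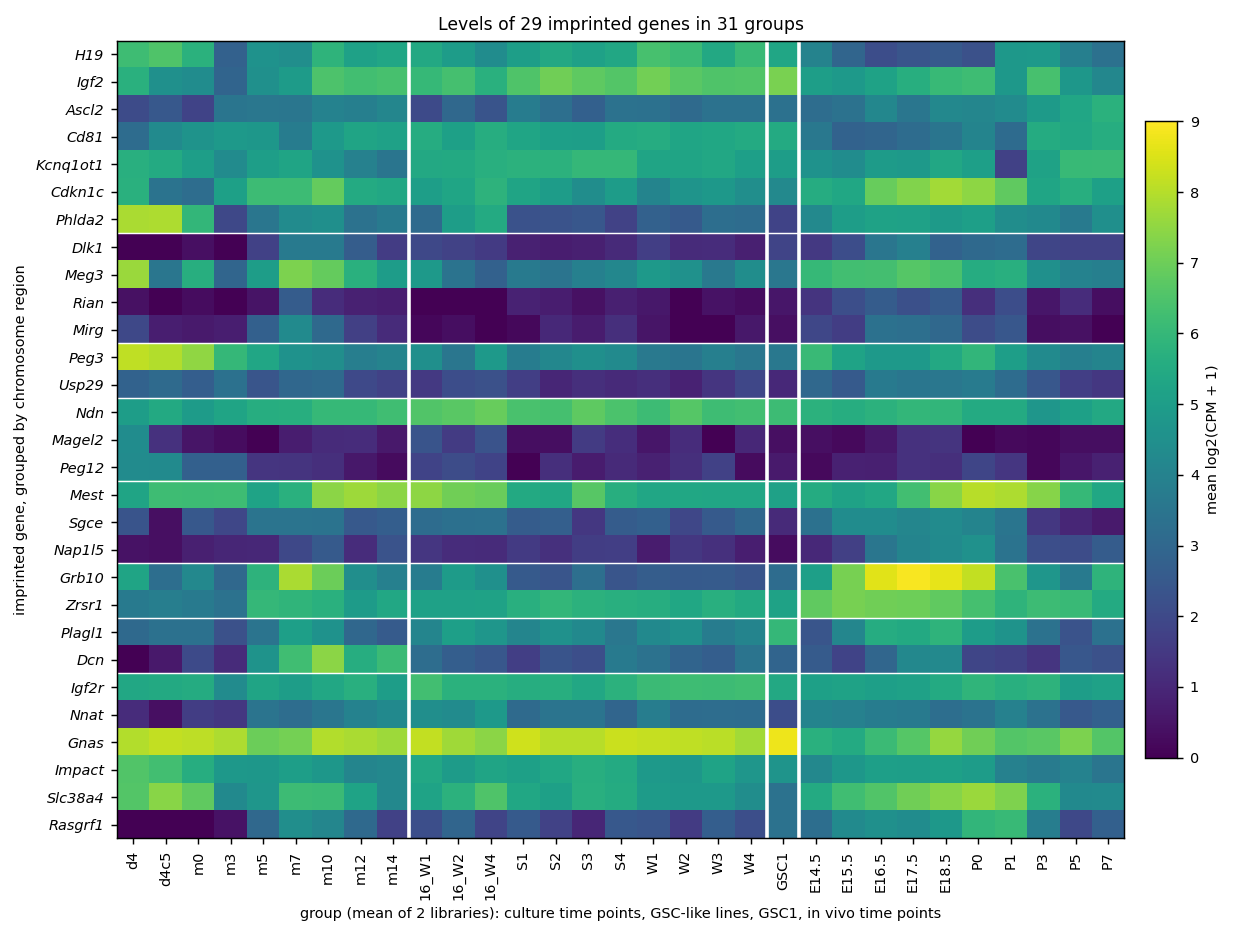
Mean level (log2 of CPM + 1) of the 29 tested imprinted genes in the 31 groups, with culture time points, GSC-like lines and GSC1 before the in vivo time points. Phlda2, Peg3 and Peg12 are brightest in PGC-like cells, while Grb10 and Cdkn1c peak around E16.5 to P0 in vivo.

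In the fetal testis 12 of 29 imprinted genes rose and 2 fell at E17.5 and E18.5 relative to E14.5; of all genes, 26.6% rose and 13.1% fell. The median change of the 29 was 0.954 (log2), against 0.0864 for all genes. Grb10, an adaptor protein that dampens insulin and growth factor receptor signals, rose through fetal life. It had 33.3 and 32.2 CPM at E14.5, 157 and 128 at E15.5, 369 and 404 at E16.5, 468 and 493 at E17.5, and 400 and 416 at E18.5, a log2 rise of 3.76 ± 0.32 (SE, adjusted p = 4.3e-12 in edgeR). The late libraries were all above the early ones. Cdkn1c, a cyclin-dependent kinase inhibitor, had 221 and 206 CPM at E18.5, against 44.2 and 48.9 CPM at E14.5, with a log2 rise of 1.96 ± 0.23. Plagl1, a zinc-finger transcription factor, had 52.7 and 35.3 CPM at E17.5 and 54.3 and 58.5 CPM at E18.5, against 2.81 and 6.02 CPM at E14.5. Its log2 rise was 3.49 ± 0.55 (adjusted p = 2.23e-06 in edgeR).

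Other genes that rose late in fetal life differ in function. Nap1l5, a relative of nucleosome assembly proteins, rose by 3.78 ± 0.66 on the log2 scale, to 11.1 to 22 CPM at E17.5 and E18.5, against 2.1 and 0.354 CPM at E14.5. Slc38a4, an amino acid transporter, rose by 1.75 ± 0.27, Mest, a hydrolase-like membrane protein, by 1.29 ± 0.21, and Gnas, the stimulatory G protein subunit, by 1.39 ± 0.22. Rasgrf1, a Ras exchange factor, rose by 1.42 ± 0.38. Dlk1, a membrane protein related to Notch ligands, had 14.6 and 13.6 CPM at E17.5, against 1.05 and 2.83 CPM at E14.5 (log2 2.26 ± 0.57). A pair of low genes, Peg12 (log2 2.71 ± 1.2) and the miRNA host transcript Mirg (1.45 ± 0.56), passed the test but lost it without 1 of several libraries. Leaving out E14.5 replicate 1 took Peg12 to 1.86 (adjusted p = 0.282), and leaving out E14.5 replicate 2 took Mirg to 0.96 (adjusted p = 0.261).

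H19 and Peg3 were lower late in fetal life, by calls that hung on single libraries. H19, a long noncoding RNA next to Igf2, had 5.85, 3, 4.06 and 5.43 CPM at E17.5 and E18.5, against 17.2 and 13.8 CPM at E14.5 (log2 −1.74 ± 0.75, adjusted p = 0.0467 in edgeR). Peg3, a zinc-finger protein, changed by −1.002 ± 0.41. The H19 call was lost in each of 6 single omissions, with changes no smaller than −1.54 in size and an adjusted p of up to 0.19, and the Peg3 call in 4 of 6, at −0.80 (adjusted p = 0.214) without E14.5 replicate 2. Dcn, the matrix proteoglycan decorin, rose by 1.84 ± 0.58 but by 1.44 (adjusted p = 0.109) without E14.5 replicate 2. Dcn is also a stromal gene, and 13 of 16 stromal markers rose in the same comparison, with summed levels of 815 to 980 CPM at E17.5 and E18.5, against 246 and 255 CPM at E14.5; their part in these rises was not tested. Of the 14 calls, 1 remained with time points as units, that of Plagl1; E14.5 is then a single unit, taken to vary like the units of the other stages.

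Between the in vivo stages 11 of the 29 imprinted genes differed, at shares near those of all genes. In spermatogonia relative to prospermatogonia 8 of 29 fell and 3 rose, where 21.6% of all genes fell and 11.4% rose. The median change was −0.566 (log2), against −0.116 for all genes. Other-cell genes were lower in the same comparison, with calls in 12 of 16 stromal, 6 of 9 endothelial, 5 of 11 Sertoli, 4 of 4 Leydig and 4 of 4 haemoglobin genes, and their part was not tested. The 4 neighbours on chromosome 12 are maternally expressed noncoding RNAs (Meg3, Rian and Mirg) and the paternally expressed Dlk1. Meg3 had 49.8 and 43 CPM at P0, 54.9 and 47 at P1, 27.4 and 17.3 at P3, 13.6 and 16.4 at P5, and 14 and 13.7 at P7, against 58.2 to 100.5 CPM in the prospermatogonia libraries. The groups did not overlap, and the log2 change was −1.64 ± 0.15 (adjusted p = 9.24e-13 in edgeR). Rian (−1.78 ± 0.47) and Mirg (−3.22 ± 0.41) also fell. Mirg had 0 reads in both P7 libraries, and its change was −2.68 with those set to a floor of 3 reads per group. Dlk1 averaged 4.79 ± 3.34 CPM in spermatogonia and 7.37 ± 4.90 CPM in prospermatogonia (SD, n = 10 each) and was not called.

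Grb10 fell after birth by 1.92 ± 0.15 on the log2 scale: from P0 to P7 its pairs were 271 and 308, 74.7 and 95.5, 34.5 and 19, 12.5 and 11, and 48.2 and 68.1 CPM. Sgce, a sarcoglycan of muscle and nerve membranes, fell by 2.55 ± 0.25, with 0.56 and 0.608 CPM at P7, against 7.01 to 26.7 CPM in prospermatogonia. Plagl1 lay at the threshold, with a change of −1.02 ± 0.26, and missed it without any of 8 libraries. The smallest of those values was −0.87, without E15.5 replicate 1. Dcn changed by −1.29 ± 0.36. Magel2, an ubiquitin ligase partner, was below 2.7 CPM throughout; its change of −1.86 ± 0.78 was −1.36 with the 0 reads at P0 set to the floor, and 5 single omissions ended the call.

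H19, Ascl2 and Cd81 rose after birth. Cd81, a tetraspanin of the cell surface, had 51.5 and 41 CPM at P3, 43.8 and 37.9 at P5, and 42.3 and 53.5 at P7, against 5.73 to 14.03 CPM in prospermatogonia (log2 1.64 ± 0.14 over all 5 postnatal ages). P0 and P1 still lay at 5.68 to 20.1 CPM. Ascl2, a basic helix-loop-helix transcription factor, had 48.2 and 57.1 CPM at P7, against 5.67 to 18.0 CPM in prospermatogonia (log2 1.21 ± 0.22). H19 rose by 1.11 ± 0.41, and the rise was 1.05 (adjusted p = 0.061) without P0 replicate 2 and 0.85 (adjusted p = 0.0875) without P1. With time points as units Meg3, Sgce, Cd81 and Ascl2 kept their calls.

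Mest and Slc38a4 peaked at birth rather than stepping. Mest had 175 and 163 CPM at E18.5, 230 and 297 at P0, 233 and 238 at P1, 191 and 144 at P3, 61.1 and 68.2 at P5, and 33.6 and 48.3 at P7. Slc38a4 reached 182 and 215 CPM at P0 and had 16.8 and 20.7 CPM at P7. Rasgrf1 had 32.2 and 22.2 CPM at E18.5, 59.4 and 59.4 at P0, 67.1 and 64 at P1, 19 and 8.76 at P3, and 2.43 and 3.4 at P5. Kcnq1ot1, the long antisense RNA of the Kcnq1 cluster, stood at 2.92 and 1.89 CPM at P1, between 39.6 and 27.3 CPM at P0 and 39.2 and 32.3 CPM at P3. Zrsr1, a splicing factor relative, had 99.8 to 149 CPM from E15.5 to E18.5 and 44.5 and 44.1 CPM at P7, a change of −0.97 ± 0.12 that stopped just short of the fold threshold.

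**Figure D2:**
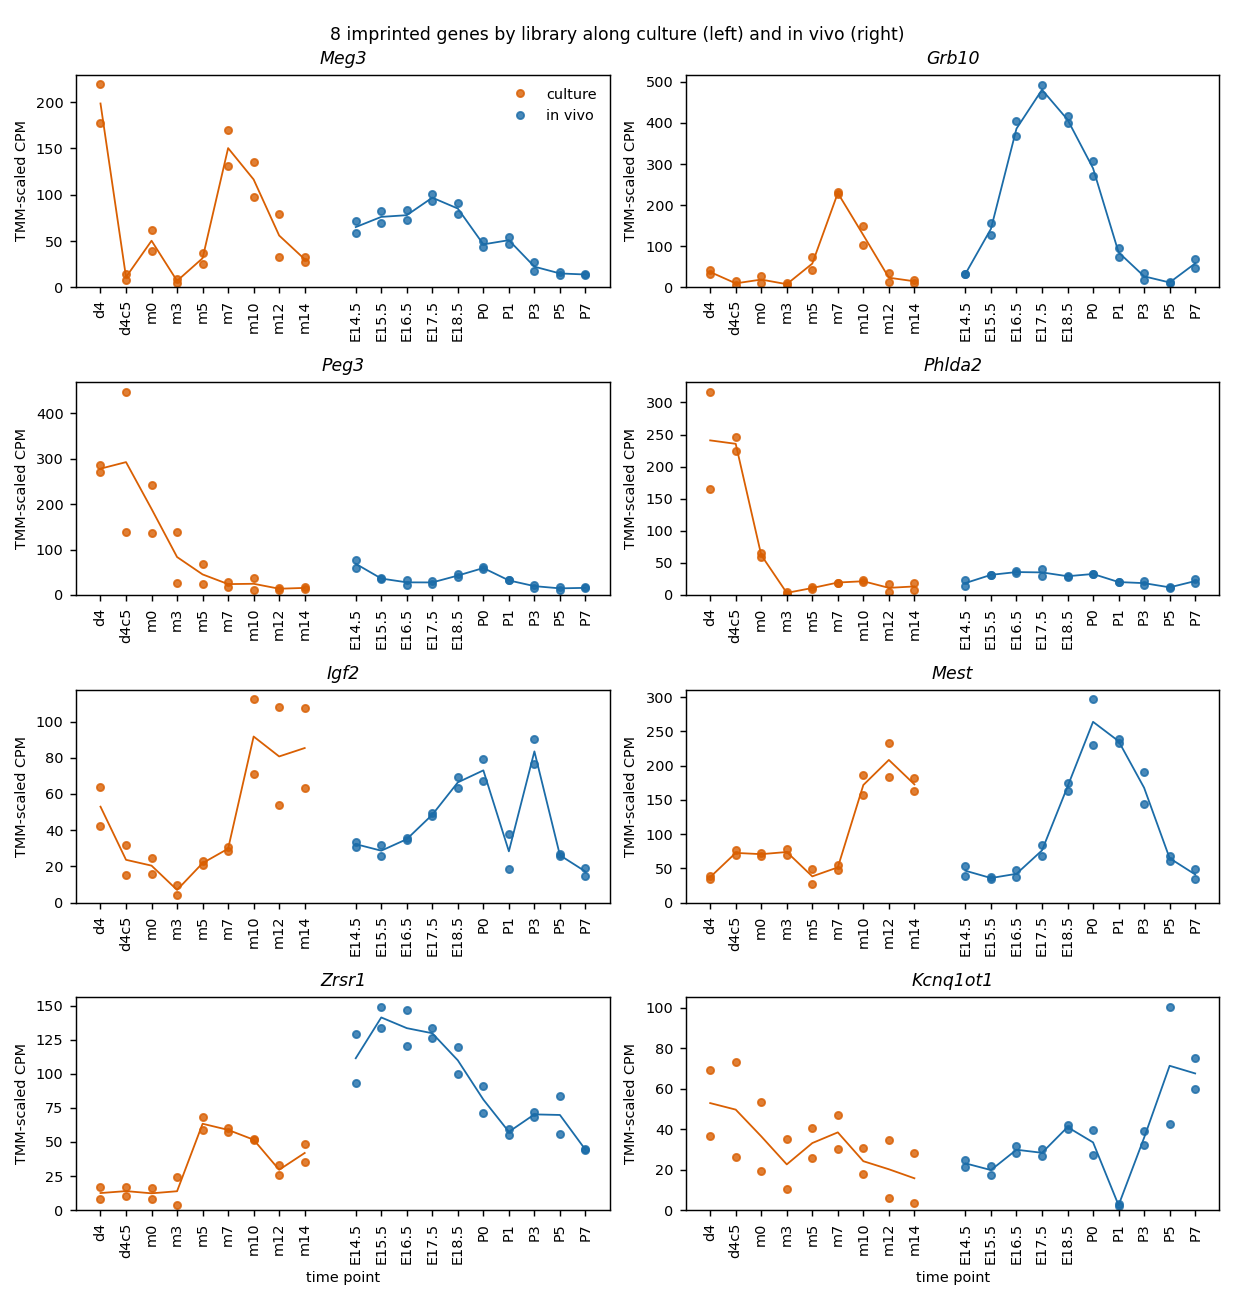
Level (TMM-scaled CPM, 1 point a library) of 8 imprinted genes over the culture time points and the in vivo time points. In culture Meg3 has 178 and 219 CPM at d4 and 170 and 131 CPM at m7, with lower levels between them, and Grb10 has 228 and 231 CPM at m7; in vivo Grb10 has 468 and 493 CPM at E17.5.

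PGC-like cells before and after expansion (d4c5 relative to d4) differed in 4 imprinted genes, all lower, where 2.16% of all genes were lower and 2.76% higher. Meg3 had 8.01 and 14 CPM at d4c5, against 178 and 219 CPM at d4, a log2 fall of 4.16 ± 0.41 (adjusted p = 1.2e-09 in edgeR). The groups were far apart. Cdkn1c had 14.7 and 6.37 CPM, against 55.2 and 48.9 CPM at d4 (−2.31 ± 0.36, adjusted p = 5.85e-06 in edgeR). Magel2 (−3.59 ± 0.90) and Grb10 (−1.94 ± 0.50) were lower as well. Each lost the call without either of 2 libraries, for Grb10 at −1.35 (adjusted p = 0.221 in edgeR) without d4c5 replicate 1. Magel2 reached 5 RPM only in the 2 d4 libraries, so it entered the tests through the group where it is high. Its fall from d4 is not independent of that filter. H19 had 24.7 and 332 CPM in the 2 d4c5 libraries, and Peg3 138 and 447 CPM, so no difference in these was detectable. Without d4c5 replicate 2, 7 genes were called.

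High in both PGC-like groups were Phlda2, a pleckstrin-domain protein known to limit placental growth, and Peg3. Phlda2 had 247 and 224 CPM at d4c5 and 166 and 316 CPM at d4, and Peg12 had 16.7 and 21.6 CPM at d4c5 and 16.9 and 21.8 CPM at d4. Rasgrf1 and Dlk1 had 0 reads in all 4 PGC-like libraries.

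In reconstituted testes 7 imprinted genes were lower and 4 higher than in PGC-like cells, where 6.67% of all genes were lower and 17% higher. The median change of the 29 was 0.116 (log2), against 0.362 for all genes. Phlda2 had 58.3 and 65.7 CPM at m0, 1.71 and 4.56 at m3, 12.5 and 9.08 at m5, and 19.4 and 19.2 at m7, against 166 to 316 CPM in PGC-like cells. Every library was lower, and the log2 fall was 4.03 ± 0.20 (adjusted p = 5.54e-25 in edgeR). Impact, a regulator of the translation kinase GCN2, fell to 25.8 to 48.7 CPM in prospermatogonia-like cells, against 75.2 to 96.7 CPM in PGC-like cells (log2 −1.40 ± 0.14). Peg3 (−2.12 ± 0.28), Peg12 (−2.61 ± 0.43) and Slc38a4 (−1.52 ± 0.19) fell too. Magel2 had at most 1.05 CPM in the m0 to m7 libraries, against 16.9 and 23.6 CPM at d4 and 2.67 and 0.637 CPM at d4c5 (−4.33 ± 0.92). With its 0 reads at m5 set to the floor Magel2 changed by −3.36, and without d4c5 replicate 1 by −3.69 (adjusted p = 0.0531 in edgeR). Because Magel2 passed the filter only through d4, its fall here is not independent of the filter either.

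The fall of H19, −2.21 ± 0.41, rested on 1 library: without d4c5 replicate 2 it was −0.78 (adjusted p = 0.133 in edgeR). Rises were called for Sgce (2.35 ± 0.61), Nnat (a small membrane proteolipid, 2.63 ± 0.64), Zrsr1 (1.16 ± 0.26) and Dcn (5.71 ± 1.4). Zrsr1 had 8.33 and 16.3 CPM at m0, 3.41 and 24.3 at m3, 58.4 and 68.3 at m5, and 57.4 and 60.3 at m7, so its rise lay between m3 and m5, and without m3 replicate 2 it was 0.61 (adjusted p = 0.0961). The rise of Nnat was 1.03 (adjusted p = 1) without the same library. Dcn had 58.7 and 95 CPM at m7 and 0 reads at d4, and its change was 3.38 with the floor. Sertoli markers rose in 10 and stromal markers in 8 of the 11 and 16 tested in this comparison, and their part in these rises was not tested.

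With time points as units Phlda2, Impact, Peg3, H19, Nnat, Zrsr1 and Dcn kept their calls.

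Within the reconstituted testes, levels of several imprinted genes at m0 and m3 stood apart from those at m7. Without m0 and m3, 19 imprinted genes were called over PGC-like cells, 11 higher and 8 lower, and all 11 above kept their call. The share of all genes called without m0 and m3 was not computed, so the count has no background. Grb10 had 10.9 and 26.8 CPM at m0, 5.12 and 10.1 at m3, 41.4 and 74.1 at m5, and 228 and 231 at m7. Meg3 had 9.38 and 4.56 CPM at m3 and 170 and 131 CPM at m7. Mirg (23.7 and 14.8 CPM), Rian (9.37 and 2.57) and Dlk1 (8.74 and 15.4) were all highest or near their highest culture level at m7 as well. Rasgrf1 stayed at 0 to 0.853 CPM through m3 and reached 29.3 and 14.8 CPM at m7.

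Spermatogonia-like cells had higher levels of 6 and lower levels of 2 imprinted genes than prospermatogonia-like cells; of all genes 13.4% were higher and 5.33% lower. The median change was 0.6 (log2), or 0.444 with groups at 0 reads set to the floor, against 0.109 for all genes. Igf2 had 112 and 71.3 CPM at m10, 108 and 53.6 at m12, and 108 and 63.1 at m14, against 4.26 to 30.8 CPM at m0 to m7. The groups did not overlap, and the log2 rise was 2.26 ± 0.19 (adjusted p = 2.37e-13 in edgeR). Mest likewise had 157 to 233 CPM, against 27.7 to 77.6 CPM, without overlap (1.71 ± 0.13, adjusted p = 1.41e-17 in edgeR). Nnat rose by 1.42 ± 0.28 and Dcn by 3.15 ± 0.35, while Peg3 fell by 1.92 ± 0.32 and Peg12 by 2.24 ± 0.64. Macrophage markers rose in 11 of 11 and stromal markers in 8 of 16; their part was not tested.

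Calls of Rasgrf1 (2.38 ± 0.61) and Dlk1 (2.63 ± 0.62) depended on time points without reads. Their changes were 1.36 and 1.59 with the floor, and without m0 and m3 they were −0.93 and −0.14. Without m0 and m3 only Igf2 and Mest kept their calls, while falls of Plagl1, Grb10 and Mirg were then called. With time points as units Igf2 and Peg3 kept theirs.

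The step differed between culture and life. For 14 imprinted genes the change in culture exceeded that in vivo and for 2 it was smaller, by a test of the difference itself; of all genes 18.9% and 7.9% did so. The median difference was 0.926 (log2), against 0.205 for all genes. The same test called positive differences in 14 of 16 stromal, 6 of 11 macrophage and 7 of 13 germ cell markers, and their part was not tested. Igf2 changed by 2.26 in culture and by −0.08 in vivo, a difference of 2.34 ± 0.24 (adjusted p = 6.75e-11 in edgeR). Meg3 changed by 0.71 in culture and by −1.64 in vivo (difference 2.34 ± 0.26). Sgce changed by 0.07 and −2.55 (2.61 ± 0.41), Nnat by 1.42 and −0.62 (2.03 ± 0.34) and Ndn, a growth-restraining protein of neurons, by 0.73 and −0.57 (1.30 ± 0.18). Grb10 (1.78 ± 0.27), Cdkn1c (1.29 ± 0.19), Zrsr1 (1.42 ± 0.21), Dlk1 (3.14 ± 0.68) and Rasgrf1 (2.59 ± 0.64) had positive differences too.

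Cd81 and Peg3 had negative differences, −1.03 ± 0.21 and −1.26 ± 0.39. Cd81 missed the fold threshold without any of 13 libraries, at −0.95 for the smallest, without P0 replicate 2. Peg3 was −0.84 (adjusted p = 0.053 in edgeR) without m3 replicate 2. Rian (2.75 ± 1.2) lost its call without any of 23 libraries, the smallest value being 2.30 (adjusted p = 0.166) without m10 replicate 2, and Magel2 (3.86 ± 1.2) without 4. Dcn (4.44 ± 0.53) and Mirg (3.29 ± 0.68) complete the 16. With the floor the differences were 2.08 for Dlk1, 1.68 for Rian, 2.77 for Mirg, 2.37 for Magel2 and 1.57 for Rasgrf1. Without m0 and m3, 8 imprinted genes were called and 7 of the 16 kept their call, and the share of all genes was not computed. With time points as units Igf2 and Ndn kept their calls.

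**Figure D3:**
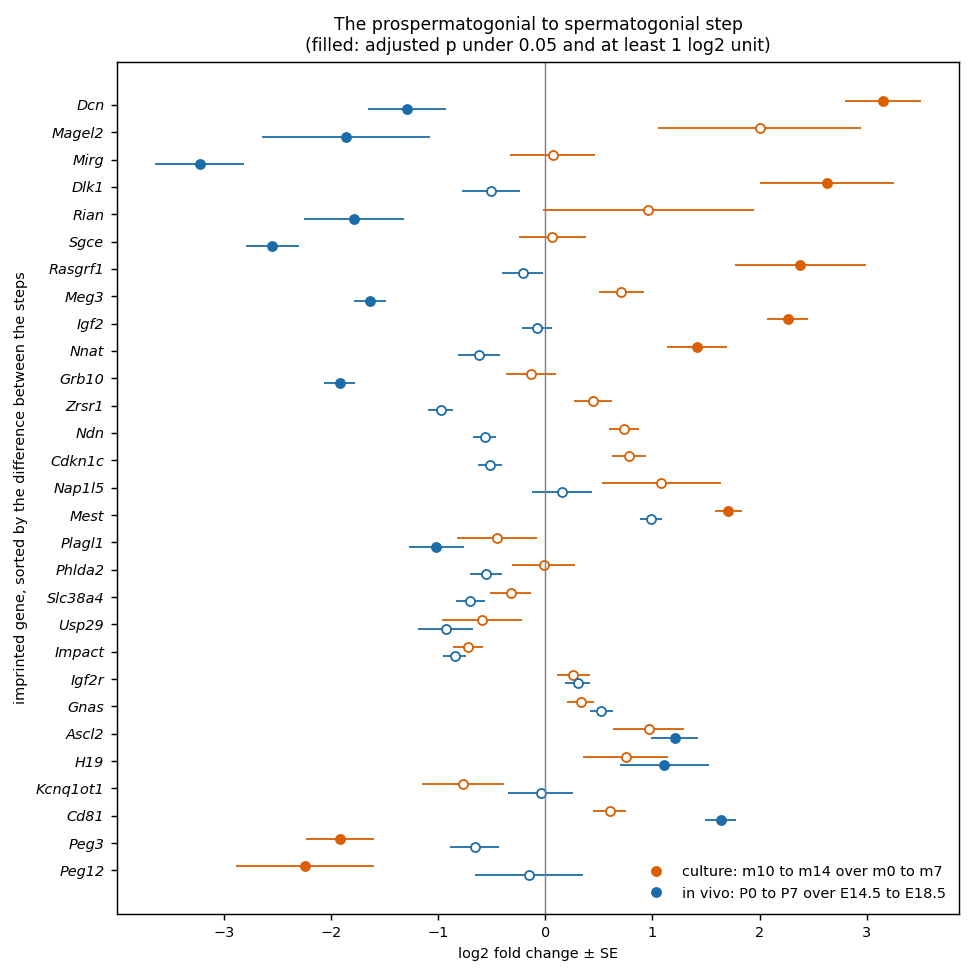
Log2 change ± SE from prospermatogonia-like to spermatogonia-like cells in culture and from prospermatogonia to spermatogonia in vivo, for each of the 29 tested imprinted genes. Filled points passed the test; Igf2 and Mest are called in culture, and Meg3, Sgce and Grb10 are called lower in vivo.

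Set against their in vivo counterparts, prospermatogonia-like cells had lower levels of 14 and higher levels of 4 imprinted genes. Of all genes, 26.5% were lower and 12.2% higher. Here, and for spermatogonia-like cells below, the labelled strain and transgenes differ too and cannot be told apart from culture. The median was −1 (log2), or −0.874 with the floor, against −0.226 for all genes. In the same comparison 6 of 9 endothelial, 3 of 4 Leydig, 4 of 4 haemoglobin and 2 of 11 macrophage genes were lower. Of 16 stromal markers 7 were lower and 1 higher, and of 13 germ cell markers 7 were lower and 2 higher. Sertoli markers were higher in 5 of 11. The part of these cells was not tested. Zrsr1 had 3.41 to 68.3 CPM in prospermatogonia-like cells, against 93.5 to 149 CPM in prospermatogonia, without overlap (log2 −2.09 ± 0.15, adjusted p = 7.46e-18 in edgeR). Grb10 differed by −2.42 ± 0.18, Cdkn1c by −1.43 ± 0.14, Nap1l5 by −2.17 ± 0.45, Meg3 by −1.17 ± 0.18, Igf2 by −1.17 ± 0.18, Sgce by −1.40 ± 0.25 and Nnat by −1.22 ± 0.25. Rasgrf1 (−3.82 ± 0.42), Rian (−2.91 ± 0.78) and Dlk1 (−2.82 ± 0.55) had culture groups at 0 reads, and their differences were −2.81, −1.86 and −1.78 with the floor. Phlda2 (−1.004 ± 0.19), Slc38a4 (−1.02 ± 0.16) and Mirg (−1.07 ± 0.41) lay at the fold threshold, and 5 to 7 single omissions took each under it.

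Higher in prospermatogonia-like cells were Gnas (1.22 ± 0.11), Cd81 (1.40 ± 0.16), Peg12 (1.79 ± 0.50) and H19 (2.08 ± 0.44). Without m3 replicate 2, H19 was at 1.42 (adjusted p = 0.233 in edgeR). Gnas had 124 to 295.5 CPM, against 35.1 to 200 CPM in prospermatogonia.

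Many of these differences rested on m0 and m3. Without m0 and m3, 7 imprinted genes were called, 6 of them among the 18. For this choice and for m7 alone the share of all genes was not computed. At m7 alone 4 were called against E14.5 to E18.5, and the sign turned for Grb10 (0.17), Meg3 (0.92), Dlk1 (1.02), Rian (0.73), Mirg (1.81) and Rasgrf1 (0.28). Called at m7 alone were Zrsr1, lower, and H19, Mirg and Dcn, higher. With time points as units 6 of the 18 kept theirs: Igf2, Zrsr1, Nap1l5, Gnas, Cd81 and H19.

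Spermatogonia-like cells had higher levels of 8 and lower levels of 2 imprinted genes than spermatogonia, where 6.85% of all genes were higher and 4.05% lower. Dcn had 46.4 to 198 CPM, against 0.739 to 10.1 CPM in spermatogonia, without overlap (log2 4.65 ± 0.31, adjusted p = 4.54e-14 in edgeR). As many as 10 of 16 stromal and 10 of 11 macrophage markers were higher too, and their part was not tested. Igf2 averaged 86.0 ± 26.2 CPM (SD, n = 6) in spermatogonia-like cells and 45.6 ± 29.3 CPM (SD, n = 10) in spermatogonia, a difference of 1.17 ± 0.16 (log2) with overlapping libraries. H19 had 29.1 to 65.6 CPM, against 3.09 to 31.8 CPM (1.72 ± 0.37), Meg3 27.5 to 135 CPM, against 13.6 to 54.9 CPM (1.18 ± 0.18), and Gnas 177 to 343 CPM, against 94.0 to 175 CPM (1.03 ± 0.12). Sgce (1.21 ± 0.32), Mirg (2.23 ± 0.55) and Magel2 (2.59 ± 0.78) were also higher, Mirg by 1.65 and Magel2 by 2.18 with the floor.

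Lower were Rasgrf1 (−1.23 ± 0.28) and Nap1l5 (−1.25 ± 0.39). Without m12 replicate 1, Igf2 (0.98), Meg3 (0.94) and Sgce (0.89) fell under the fold threshold, Gnas did without m10 replicate 1 (0.84), and Nap1l5 without P5 replicate 1 (−0.96, adjusted p = 0.0565). Magel2 lost its call without 3 libraries. Only Dcn kept its call with time points as units. These comparisons share their culture and in vivo libraries with the steps above, so the lists of called genes are not independent of each other.

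GSC-like lines are described as derived from m14 cells, but their labelled strain and transgenes differ from those of m14. The BGH pA row held 12.41 and 14.98 RPM at m14 and at most 0.329 RPM in 16_W. RBG pA was at 0 at m14 and at 35.55 to 379.6 RPM in 16_W. Strain, transgenes and the step to a line cannot be told apart here. Relative to m14 the lines had 6 imprinted genes lower and 3 higher, where 9.63% of all genes were lower and 4.18% higher. Dcn had 1.34 to 18.0 CPM in the 22 GSC-like libraries, against 64.1 and 75.7 CPM at m14 (log2 −3.50 ± 0.33). All 11 macrophage markers and 8 of 11 Sertoli markers were lower as well, and their part was not tested. Mest had 26.6 to 176 CPM, against 163 and 182 CPM (−1.44 ± 0.15). That average hides a split, with 124 to 174.5 CPM in the 16_W lines, 39.8 to 101 CPM in S and 38.8 to 41.6 CPM in W. Mirg (−2.21 ± 0.79, or −1.33 with 3 lines at 0 reads set to the floor), Nap1l5 (−1.42 ± 0.57), Ascl2 (−1.19 ± 0.38) and Meg3 (−1.01 ± 0.28) were lower, and Slc38a4 (1.12 ± 0.29), Kcnq1ot1 (1.57 ± 0.55) and Plagl1 (1.89 ± 0.55) higher. The m14 arm is 2 libraries. Without m14 replicate 1, 4 calls were made, with Ascl2 at −0.60, Meg3 at −0.86 and Slc38a4 at 0.87, and without m14 replicate 2 Kcnq1ot1 was at 0.75. Kcnq1ot1 had 28.1 and 3.37 CPM in the 2 m14 libraries. Nap1l5 lost its call in 17 of 24 single omissions, Meg3 in 10, and Mirg and Plagl1 in 2 each. With time points and lines as units, where m14 is a single unit taken to vary like the units of the other stages, only Dcn kept its call.

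GSC1 set against P7 spermatogonia showed 5 imprinted genes higher and 4 lower, where 6.61% of all genes were higher and 6.82% lower. GSC1 is a single culture of another labelled strain with other transgenes, and these differences from P7 cannot be told apart. Igf2 had 138 and 149 CPM in GSC1, against 19.3 and 14.9 CPM at P7 (log2 3.06 ± 0.32, adjusted p = 7.77e-10 in edgeR), and Gnas had 446 and 434 CPM, against 94.4 and 96.7 CPM (2.204 ± 0.24). Plagl1 (2.79 ± 0.51), Impact (1.21 ± 0.25) and H19 (2.07 ± 0.73) were higher, but H19 lost its call without any of the 4 libraries. Grb10 had 8.72 and 7.67 CPM in GSC1, against 48.2 and 68.1 CPM at P7 (−2.82 ± 0.39). Phlda2 (−3.06 ± 0.43), Ascl2 (−2.50 ± 0.48) and Nap1l5 (−3.97 ± 0.94) were lower too. Nap1l5 had only 2 reads in GSC1, at 0 and 0.548 CPM, so the size of its change is uncertain.

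Between the sets of lines, 16_W had the most called differences, led by Mest, Phlda2, Nnat and Grb10. With lines as replicates (reads of the 2 libraries summed), 6 imprinted genes were higher and 2 lower in 16_W than in GSC1, where 3.43% of all genes were higher and 1.55% lower. Against W it was 5 higher and 1 lower (2.11% and 1.28% of all genes), and against S 5 higher and 0 lower (4.76% and 2.06% of all genes). Sertoli markers summed to 50.3 to 98.5 CPM in the 16_W libraries, against 21.5 to 39.4 CPM in S, 30.6 to 49.2 CPM in W and 55.2 and 71.2 CPM in GSC1. Of 6 tested, Wt1 and Aard were called higher over W, Wt1, Aard and Clu over S, and Aard over GSC1. Not all Sertoli markers went that way. Sox9 averaged 3.16 CPM in 16_W, against 5.45 CPM in W, 4.21 CPM in GSC1 and 2.53 CPM in S. Wt1 averaged 16.7 CPM in 16_W, against 25.9 CPM in GSC1. The part of Sertoli markers in the differences was not tested. Mest, Phlda2 and Nnat were higher in 16_W in all 3 comparisons. Mest averaged 174.5, 135.4 and 124 CPM in lines 16_W1, 16_W2 and 16_W4, against 39.8 to 101 CPM in the S lines, 38.8 to 41.6 CPM in the W lines and 34.2 CPM in GSC1. Its log2 difference was 1.35 ± 0.30 from S, 1.87 ± 0.31 from W and 2.11 ± 0.52 from GSC1, and line S3, at 101 CPM, lay nearest to the 16_W lines.

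Phlda2 averaged 28.2 ± 18.2 CPM in 16_W (SD, n = 3), against 3.77 ± 0.88 in S and 6.95 ± 1.73 CPM in W (SD, n = 4 each) and 2.53 CPM in GSC1. The 16_W lines were themselves uneven, with 8.43 CPM in 16_W1 and 44.3 CPM in 16_W4. Differences were 2.92 ± 0.44 from S, 2.06 ± 0.42 from W and 3.49 ± 0.80 from GSC1. Grb10 had 12.8 to 30.4 CPM in the 16_W lines, against 4.25 to 8.84 CPM in S and 4.76 to 5.28 CPM in W, with differences of 1.94 ± 0.29 and 2.10 ± 0.30, and 8.20 CPM in GSC1. Nnat had 19.5 to 28.2 CPM in 16_W, against 6.75 to 10.2 CPM in S, 8.06 to 13.2 CPM in W and 3.40 CPM in GSC1. Slc38a4 was 2.61 ± 0.52 higher than in GSC1 and 1.18 ± 0.29 higher than in W, and the difference from W was 0.72 without line 16_W4. H19, at 21.4 to 42.4 CPM in 16_W, against 43.2 to 83.6 CPM in W, differed by −1.10 ± 0.24, and by −0.86 without 16_W4.

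GSC1 differed from every set in Plagl1. It had 16.3 to 32.9 CPM in 16_W, 12.1 to 22.5 CPM in S and 12.7 to 21.7 CPM in W lines, against 54.9 and 72.3 CPM in the GSC1 libraries, with log2 differences of −1.37 ± 0.33, −1.88 ± 0.31 and −1.88 ± 0.31 (adjusted p = 0.012, 0.000655 and 0.000763 in edgeR). GSC1 is a single line, taken to vary like the others. Sgce averaged 8.89 CPM in 16_W, 4.50 CPM in S and 5.41 CPM in W, against 1.12 CPM in GSC1, and Nnat was 1.35 to 2.77 higher (log2) in the 3 sets. In all, S lines had 3 genes higher and 1 lower than GSC1 (2.71% and 2.78% of all genes), adding Slc38a4 at 2.05 ± 0.51. W lines had 2 higher and 1 lower (2.18% and 1.62% of all genes). The Sgce calls in S and W, and that of Slc38a4 in S, were lost with GSC1 taken from its library 2 alone (Sgce 1.70 and 1.94, Slc38a4 1.68), and those of Nnat from its library 1 alone (1.18 and 1.32). Sgce lost its call in 5 of 6 single omissions in S and in 2 of 6 in W.

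In 16_W relative to GSC1 the calls of Mest, Igf2 (−1.09 ± 0.27) and Cdkn1c (1.22 ± 0.37) were each lost without 1 of 2 or 3 lines or libraries. The lowest of those were 1.98 (adjusted p = 0.0548) for Mest without 16_W1, −0.94 (adjusted p = 0.0501) for Igf2 and 0.93 (adjusted p = 0.0731) for Cdkn1c, both without 16_W4. Sgce in 16_W relative to S was 1.02 ± 0.34, and 0.77 (adjusted p = 0.0502) without line S3.

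No imprinted gene was called between S and W in edgeR's test with lines as replicates, where 0.405% of all genes were higher and 1.32% lower. DESeq2 and limma also called 0. Unadjusted p was under 0.05 for 7 of 22. The shares of all genes just given also required the fold threshold. No share of all genes was computed at unadjusted p, or at adjusted p without the fold threshold. The 7 of 22 and the genes named next therefore have no background. Under 1 log2 unit but with an adjusted p under 0.05 were H19 (−0.83 ± 0.21), Igf2r (−0.59 ± 0.11), Kcnq1ot1 (0.62 ± 0.10) and Impact (0.53 ± 0.14). Igf2r had 41.5 to 54.7 CPM in the S lines, against 70.2 to 74.2 CPM in the W lines, and Kcnq1ot1 54.9 to 63.0 CPM, against 36.0 to 42.4 CPM, both without overlap. Without line S4, 1 gene was called, Dcn, lower in S.

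**Figure D4:**
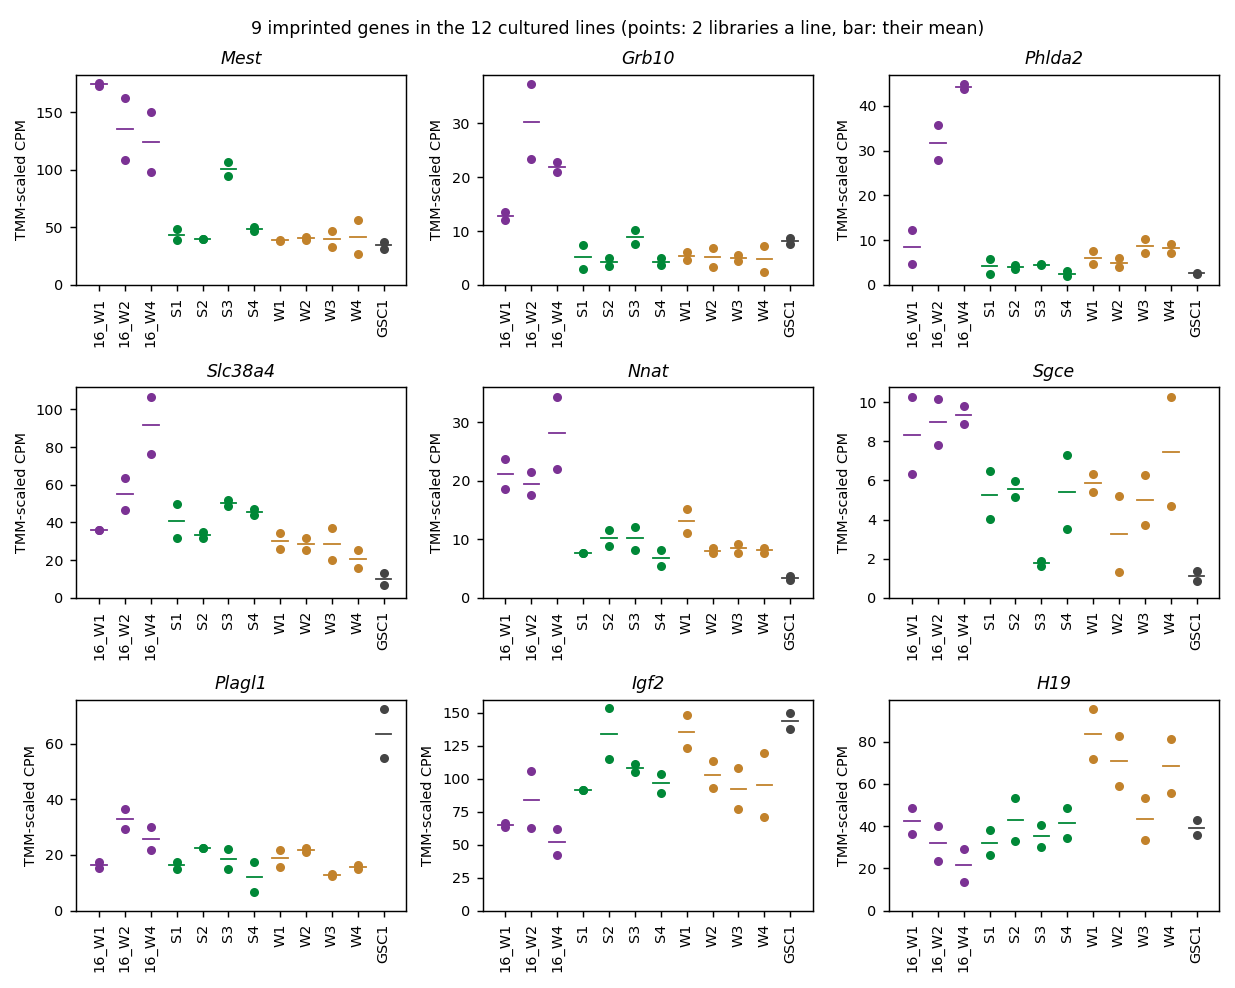
Level (TMM-scaled CPM, 2 libraries a line, bar at their mean) of 9 imprinted genes in the 16_W, S and W lines and GSC1. Mest, Grb10, Phlda2 and Nnat are highest in 16_W lines, and Plagl1 in GSC1.

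Factors that set or keep imprints were counted in the same comparisons. Of 21 listed, 18 were tested, while Zfp57 (stage means of 0.08 to 0.42 CPM) and Ctcfl stayed under the filter. Dnmt3l, which helps Dnmt3a methylate new sites, had 0 reads at m3, 174 and 175 CPM at m5 and 364 and 440 CPM at m7, and 777 and 846 CPM at E15.5 in vivo. In prospermatogonia-like cells relative to prospermatogonia 4 factors were higher and 8 lower, where 12.2% of all genes were higher and 26.5% lower. Among the lower were Dnmt3l (−6.15, or −5.08 with m3 set to the floor) and the methyltransferase Dnmt3a (−2.34). The maintenance methyltransferase Dnmt1 (1.25) and the oxidase Tet1 (1.899) were higher. These stage averages include m0 and m3, and they were not computed without those time points for the factors. In spermatogonia-like cells relative to spermatogonia 0 were higher and 2 lower (6.85% and 4.05% of all genes). In vivo, spermatogonia had 2 higher and 8 lower than prospermatogonia, where 11.4% of all genes were higher and 21.6% lower. Uhrf1, which guides Dnmt1, was up by 3.15 and Dnmt3l was down to 1.12 and 3.34 CPM at P7. At most 1 of 15 tested factors was called in each comparison of line sets, where 0.405 to 4.76% of all genes were called in each direction.

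Of 38 other imprinted genes 28 were tested. In spermatogonia relative to prospermatogonia 0 were higher and 12 lower, led by Calcr (−3.89), where 11.4% of all genes were higher and 21.6% lower. Late in fetal life 11 were higher and 1 lower (26.6% and 13.1% of all genes). Prospermatogonia-like cells had 0 higher and 10 lower than prospermatogonia (12.2% and 26.5% of all genes). Spermatogonia-like cells had 2 higher and 1 lower than spermatogonia (6.85% and 4.05% of all genes). The culture step had 5 higher and 4 lower (13.4% and 5.33% of all genes). Between sets of lines at most 1 of 16 tested was called in any comparison, where 0.405 to 4.76% of all genes were called in each direction.

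**Figure D5:**
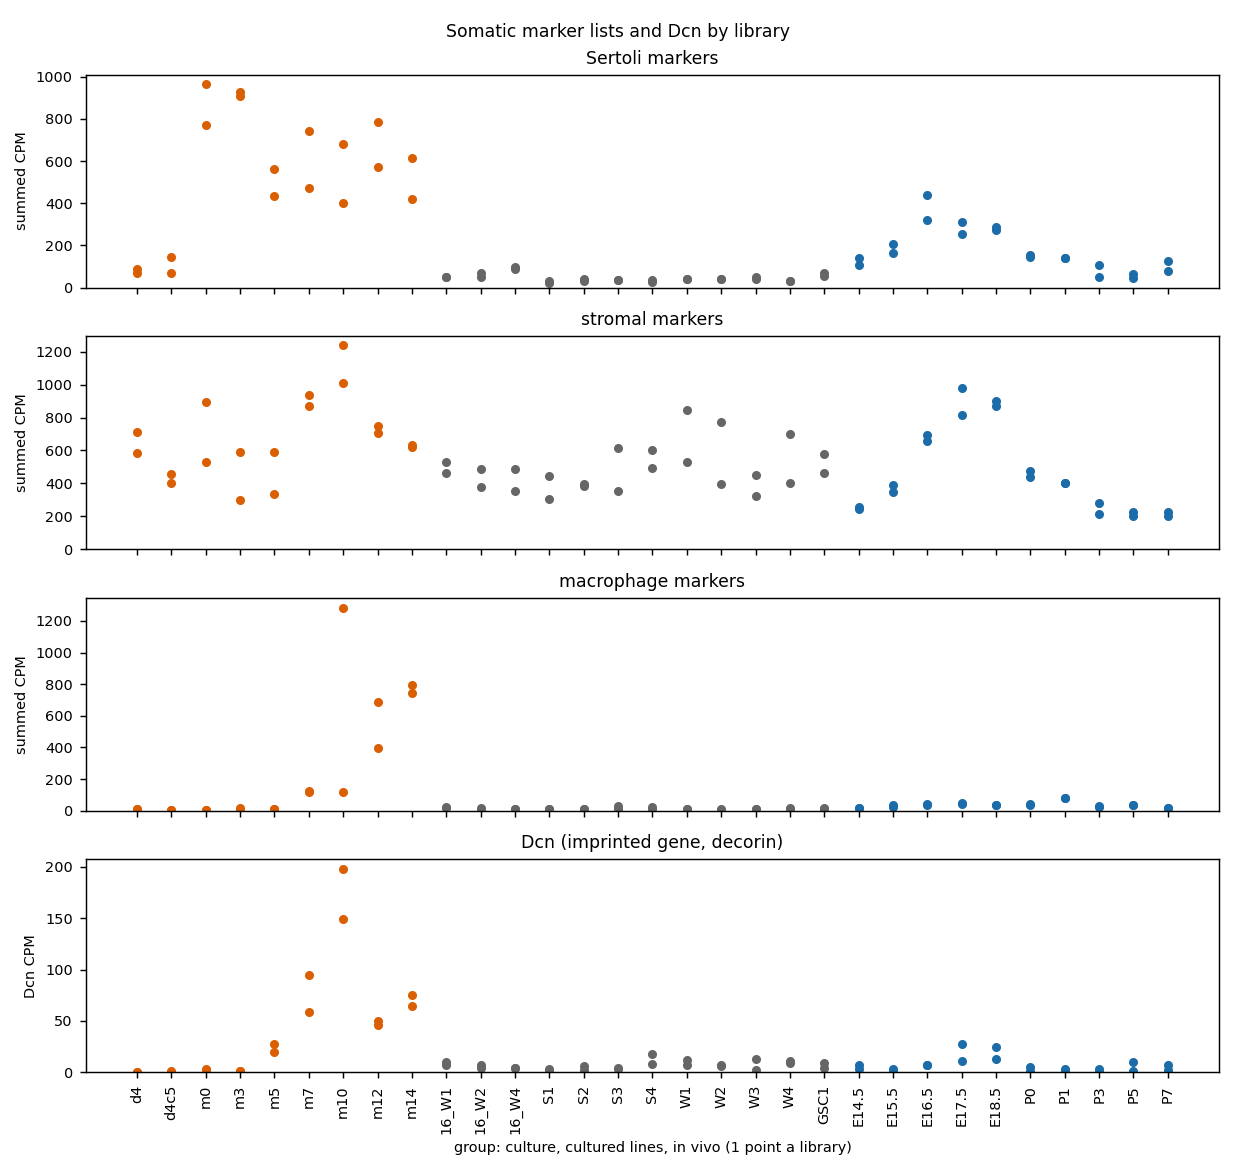
Summed level (TMM-scaled CPM, 1 point a library) of Sertoli, stromal and macrophage markers and the level of Dcn, by group. Macrophage markers reach 121 to 1283 CPM in spermatogonia-like cells, where Dcn has 46.4 to 198 CPM.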

How the data were processed

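The authors deposited 1 table of raw read counts per library, with an RPM column that was not used. Tools named in the submitters' processing notes are HTSeq 0.9.1, Bowtie2 2.2.7, TopHat2 2.0.11 and cutadapt 1.9.1, with build GRCm38.p6; the sources used here give no parameters, strand setting or annotation. According to the labels' protocols, cDNA was amplified from 1 ng of total RNA and sequenced from 3′ ends. Tables held 36038 rows: 35914 nuclear genes, 13 mitochondrial genes, 101 spike-in and transgene rows and 10 blank genes; tests and library sizes used nuclear genes only.

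The filter asked for 5 RPM or more in 2 or more libraries (16008 genes over all libraries, 12106 over the lines). Tests used edgeR 4.0.16 (R 4.3.3), TMM scaling and robust quasi-likelihood fits with 1 coefficient for each of 31 groups, or 4 sets of lines on counts summed by line. Calls needed a Benjamini-Hochberg adjusted p under 0.05 over all genes and 1 log2 unit, and for F tests 1 log2 unit between the highest and lowest group. The SE is the log2 change over the square root of F. TMM centres most genes, and the median gene still shifted by 0.362 (log2) between prospermatogonia-like and PGC-like cells and by at most 0.226 in size elsewhere. DESeq2 1.42.0, limma 3.58.1 (log2 of RPM plus a pseudocount of 1, 0.5 or 5), no filter or 20 RPM, RPM scaling, replicate blocks, other units and omissions of libraries or lines were tried. Groups with 0 reads were set to a floor of 3 reads per group, which covers counting error only. The method was tested on simulated data.

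All 35 genes are reported, with statistics where called. Of other lists the counts are given, with up to 4 of the largest called changes or the always named Dnmt3a, Dnmt3l, Zfp57, Dnmt1, Uhrf1, Tet1 and Ctcfl. Genes and lists were chosen with earlier results of these data known. Libraries of 1 group were not duplicates: chi-squared per degree of freedom was 1.51 to 15.1.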

Additional observations from a re-analysis of the deposited data

Results flagged for a closer look

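Within the sets of 4 lines, 4 of 44 checks found a line far from the other lines by Dixon's criterion, which chance meets in about 1 of 20. Ndn averaged 98.0 CPM in line W2, Nnat 13.2 CPM in line W1 and Slc38a4 20.7 CPM in line W4, each set against the other 3 W lines. Sgce averaged 1.8 CPM in line S3, the lowest of the S lines.

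For 16 imprinted genes the log2 change from prospermatogonia-like to spermatogonia-like cells differed from that between the in vivo stages, by a test of the difference in edgeR. The culture change minus the in vivo change was 4.44 for Dcn, 3.86 for Magel2, 3.29 for Mirg, 3.14 for Dlk1, 2.75 for Rian, 2.61 for Sgce, 2.59 for Rasgrf1, 2.34 for Meg3 and 2.34 for Igf2. It was 2.03 for Nnat, 1.78 for Grb10, 1.42 for Zrsr1, 1.30 for Ndn, 1.29 for Cdkn1c, −1.03 for Cd81 and −1.26 for Peg3.

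The RBG pA sequence row, which no comparison uses, averaged 238.4 RPM in the 16_W libraries and 376.4 RPM in GSC1, and at most 0.892 RPM in any library outside the lines.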

How the results depend on the processing

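Leaving out 1 library (with the trended spread of the full fit kept) or 1 line at a time gave 2003 folds of called genes, of which 175 lost their call and 0 changed sign. Counts of called imprinted genes ran from 10 to 13 for spermatogonia over prospermatogonia, 10 to 14 late in fetal life, 3 to 7 for d4c5 over d4, 10 to 13 for entry into reconstituted testes, 8 to 10 for the culture step, 13 to 16 for its difference from life, 16 to 18 and 8 to 10 for the prospermatogonia-like and spermatogonia-like cells against their counterparts, 4 to 10 for the GSC-like lines over m14 and 7 to 9 for GSC1 over P7. They ran from 2 to 3, 2 to 4 and 6 to 8 for W, S and 16_W over GSC1, 0 to 1 for S over W, 4 to 8 for 16_W over W and 4 to 6 for 16_W over S, and from 27 to 28, 26 to 28 and 9 to 13 in the F tests.

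The cause of the following shifts was not tested, except that other units leave fewer samples. Shares over all genes were not computed for these settings. Time points or lines as units gave 4 calls in the in vivo step, 1 late in fetal life, 2 in the culture step, 7 for prospermatogonia-like and 1 for spermatogonia-like cells against their counterparts, 1 for GSC-like lines over m14 and 2 in the step difference. limma with a pseudocount of 5 gave 6, 7, 5, 4 and 9 for the in vivo step, prospermatogonia-like, spermatogonia-like, GSC-like and step-difference calls, and with 1 gave 6 for spermatogonia-like cells and 7 for d4c5 over d4, which also had 7 with 0.5. Without m0 and m3 (chosen after seeing the data) there were 19 calls for entry into reconstituted testes, 5 in the culture step, 8 in the step difference and 7 for prospermatogonia-like cells, and 4 with m7 only. Without a filter there were 6 for W over GSC1 and 9 for 16_W over S, and with libraries as units 6, 7 and 9 for W and S over GSC1 and 16_W over S. Signs turned without m0 and m3 for Rasgrf1 (−0.93) and Dlk1 (−0.14) in the culture step, Mirg (0.94) against prospermatogonia and Rasgrf1 (−0.72) in the step difference. With m7 only they turned for Rasgrf1 (0.28), Grb10 (0.17), Dlk1 (1.02), Meg3 (0.92), Rian (0.73) and Mirg (1.81), and with time points as units for Mirg (0.0011) and Rasgrf1 (−0.32 in the step difference).

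Replicate numbers did not pair the libraries by the criterion used, a correlation over 0.1 in every pair: same-numbered deviations had a median correlation of 0.0039, and 24 of 465 pairs exceeded 0.1. Among the 9 culture groups the median was 0.133 (−0.027 to 0.359) and 21 of 36 pairs exceeded 0.1, which is a hint from the data that numbers are shared there. With the replicate block, 11, 13, 4, 11 and 8 genes were called in the in vivo step, late fetal life, d4c5 over d4, entry and the culture step. A replicate block in the culture groups only (chosen after seeing the data) kept all 76 calls of single genes in the 7 comparisons that use those groups, with 5, 11, 8, 19, 10, 9 and 16 genes called for d4c5 over d4, entry, the culture step, prospermatogonia-like and spermatogonia-like cells against their counterparts, GSC-like lines over m14 and the step difference.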
